A study of Homo sapiens with 12 samples.

Results

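The p53 target genes described here are 32 protein-coding genes that are known to be switched on by the transcription factor p53, with the BCL2 family of apoptosis genes left aside. They were chosen by gene symbol as known targets of p53. This list and the other gene lists were drawn up with earlier results of these data known. Their shares set against all genes are therefore descriptions and not an independent check. Each of the 32 symbols matched 1 protein-coding row of a table of 58735 genes. The study used MSTO-211H cells, an established line from a human mesothelioma, a tumour of the mesothelial lining. They were kept in suspension with EGF and bFGF, and the labels call them mesothelioma-initiating cells. Either vehicle or the compound QTP (10 µM, known only by that name in the labels) was given first, then 4 Gy or sham irradiation a day later, and RNA was collected after a further 48 h. There were 4 groups of 3 libraries each: Con (vehicle and sham), IR (vehicle and 4 Gy), Rx (read here as QTP and sham) and Combo (read here as QTP and 4 Gy). The reading of Rx and Combo rests on the 4 arms of the design. Every group is the same line, so differences between lines were not measured. Whether replicate libraries stem from separate cultures is not stated, so each p-value reflects only the spread among these libraries, part of which may be technical.

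p53 is a protein that MDM2 keeps at a low level by tagging it for destruction. DNA breaks activate the kinases ATM and CHK2, which modify p53 so that it escapes MDM2, accumulates and binds DNA as a tetramer at pairs of 10-base half-sites near its target genes. Its targets stop the cell cycle (CDKN1A, which encodes p21), repair DNA (DDB2, XPC), promote cell death (FAS, TNFRSF10B) and, through MDM2 and PPM1D, turn p53 itself down again. In mesothelioma CDKN2A, whose product ARF restrains MDM2, is often lost.

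Levels are in FPKM, fragment counts scaled by gene length and library size. For all 32 genes that length is the merged length of all annotated exons, which need not be that of the transcripts present. Rankings of levels between genes depend on it. The 12 libraries held 13188257 to 18630958 reads assigned to genes, a number recovered from the FPKM values, and the 32 genes had 52 to 17208 reads each per library. All 32 genes reached the minimum for testing (1 FPKM as the mean of the 12 libraries), and 26 had at least 5 FPKM. Mitochondrial genes took 6.73% to 10.5% of the reads, with the highest share in IR 3. IR 3 and Combo 3 were the extremes of the first principal component (26.5% of the variance). The mesothelial markers MSLN (24.4 to 55.5 FPKM) and CALB2 (13.6 to 33.9 FPKM) were present in every library. Of 10 mesothelial markers 5 reached a mean of 1 FPKM, WT1 lay at 0.458 to 1.34 FPKM, and PDPN had no read in any library. All 5 had a lower mean in Combo than in Con (51.5% of all genes), 3 of them at an unadjusted p under 0.05 (7.69% of all genes): CALB2 (-0.73 in log2(FPKM + 1), SE 0.19), KRT8 (-0.51, SE 0.16) and KRT18 (-0.48, SE 0.18). None passed limma's adjusted test (smallest adjusted p = 0.155), and their part in the results was not tested. Of 4 fibroblast markers 2 reached a mean of 1 FPKM, COL1A1 (1.66 to 3.65 FPKM) and PDGFRB (1.21 to 1.94 FPKM, with IR wholly below Con). The 4 immune, 3 endothelial and 3 epithelial carcinoma markers looked for were all under a mean of 0.1 FPKM.

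Some of the genes carry a p53 binding motif next to a transcription start, and those stretches are shown because the consensus is known to be where p53 binds. RefSeq promoters (GRCh38.p14, 250 bases before to 50 bases after each start) were found for 26 of the 32 genes, in 38 windows. The p53 half-site consensus, searched by name on both strands, matched exactly in 7 of 38 windows (18.4%), against 6.6% of all 35116 RefSeq promoters. A full site was defined as a pair of half-sites 0 to 13 bases apart with at most 2 mismatches in all. Each half-site had to keep C at base 4 and G at base 7. Such a site was in 6 of 38 windows (15.79%), against 2.93% of all promoters. The MDM2 site fell in 2 overlapping windows, so the 6 windows belong to 5 of the 26 genes. The DDB2 window held 3 pairs that met the definition and the FAS window 2. For each gene 1 pair is shown, that with the fewest mismatches and, among equals, the shortest spacer. In the full sites below, read 5′ to 3′ on the strand of the gene, capitals mark the half-sites.
DDB2 (chr11:47214975-47215004, plus strand): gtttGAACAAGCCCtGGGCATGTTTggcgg
MDM2 (chr12:68808918-68808947, plus strand): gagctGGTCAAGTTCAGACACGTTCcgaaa
FAS (chr10:88991304-88991333, plus strand): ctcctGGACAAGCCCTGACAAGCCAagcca
AEN (chr15:88621301-88621330, plus strand): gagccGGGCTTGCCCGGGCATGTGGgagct
FDXR (chr17:74872996-74873025, minus strand): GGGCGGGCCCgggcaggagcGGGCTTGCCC
The DDB2 site was the only one of these 5 with 0 mismatches and has 1 base between its half-sites. It begins 5 bases after a second start of the gene, inside its annotated span, and the window of the first start held no site. The FAS site lies 122 bases before a later start of that gene, also inside its span. The MDM2 site lies 94 bases before a second start of the gene, inside its annotated span, and has 2 mismatches. PLK2, RPS27L and SESN1 each held an exact half-site with no full site by this definition.
PLK2 (chr5:58460199-58460228, minus strand): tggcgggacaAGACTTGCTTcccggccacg
RPS27L (chr15:63157517-63157546, minus strand): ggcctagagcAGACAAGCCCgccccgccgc
SESN1 (chr6:109009018-109009047, minus strand): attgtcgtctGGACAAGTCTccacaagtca
A match describes letters in a window and is not evidence of binding in these cells. Promoters of GADD45A, TNFRSF10B, TP53INP1, ASCC3, RRM2B and PHLDA3 were not used here.

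Radiation alone (IR against Con) asks which of these genes stand at another level 48 h after 4 Gy. The mean of 30 of the 32 genes was higher in IR than in Con (93.8%, against 52.6% of the 13038 genes tested), with a median log2 difference of 0.18 against 0.01 for all genes tested. The 2 others were POLH, a translesion DNA polymerase (-0.06, SE 0.14), and ASCC3, a DNA helicase (-0.04, SE 0.10), and both turned positive without IR 3 (0.13 and 0.01). In 15 genes the 3 IR values all lay above the 3 Con values (46.9%, against 5.56% of all genes tested), and in 0 they all lay below (4.98% of all genes). No single gene passed limma's test adjusted over all 13038 genes (0 of 32, and 0% of all genes), while 10 of 32 were higher at an unadjusted p under 0.05 (31.2%, against 3.69% of all genes). That count of 10 was 6 without Con 2, and 6 without both IR 3 and Combo 3, when all 32 means were higher in IR. Over all 13038 genes the count at that p in either direction also fell, from 894 to 550 and to 648. Later counts at that p with libraries left out are given without the count of all genes. Whether a fall in them is particular to the p53 targets can therefore not be read from them. limma's voom on the recovered reads also called 0 of the 32. No rescaling of the libraries moved the median of all genes by more than 0.1.

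Single differences were small enough for 1 library to move them. Without IR 3 the difference in IR against Con kept its sign and shrank by over 1.5 times for 7 of the 32 genes: GADD45A (from 0.24 to 0.10), SESN1 (0.22 to 0.135), CCNG1 (0.21 to 0.14), PPM1D (0.16 to 0.08), SERTAD1 (0.16 to 0.08), TRIAP1 (0.16 to 0.10) and PHLDA3 (0.15 to 0.08). It grew by over 1.5 times for XPC (0.17 to 0.30), PLK3, SPATA18 and ACER2. The difference of FDXR was 0.10 without Con 1, those of ZMAT3 and GADD45A 0.05 and 0.13 without Con 2, and those of XPC and TNFRSF10B 0.09 and 0.04 without IR 2.

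**Figure D1:**
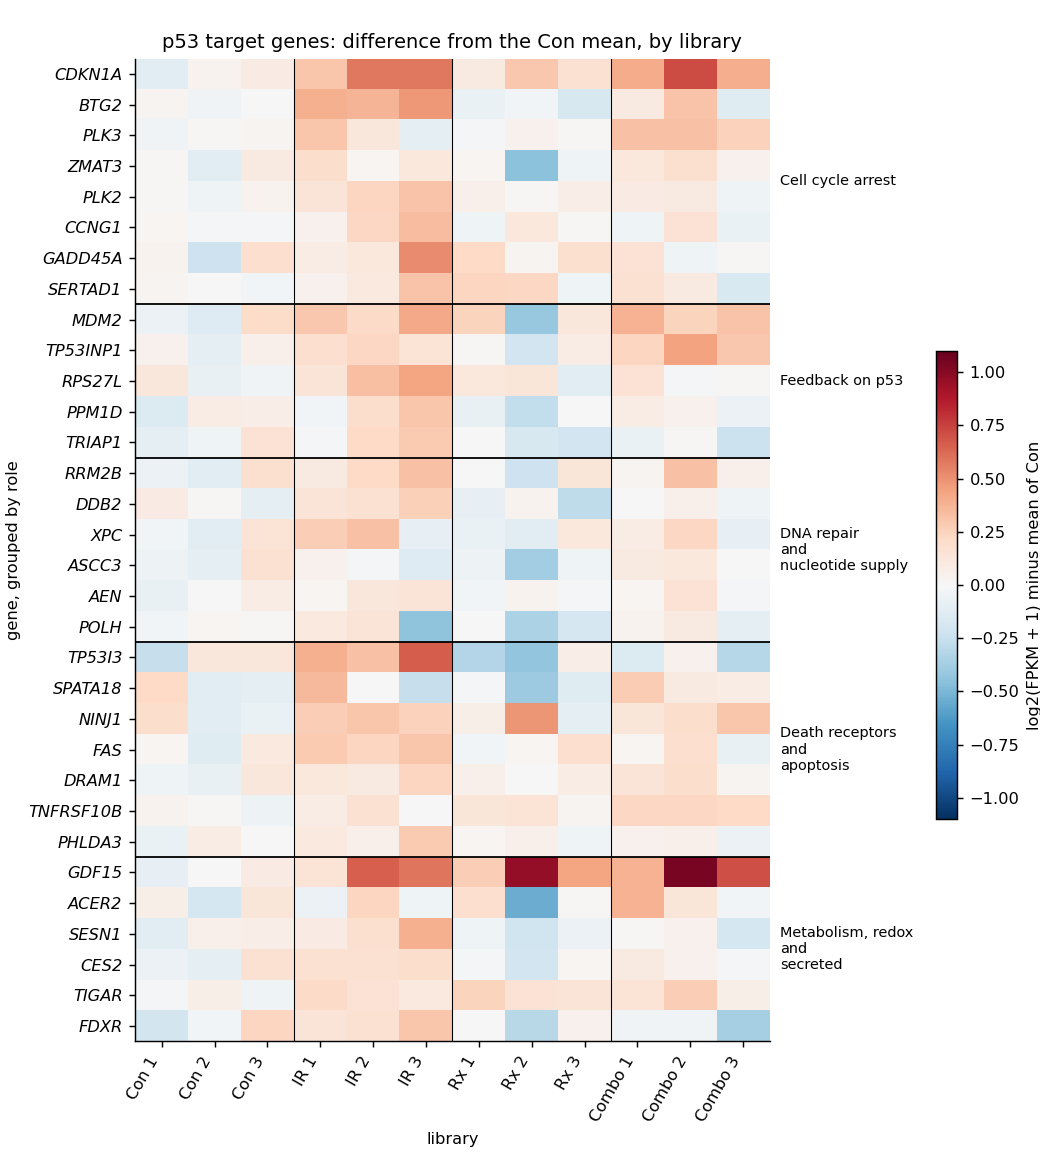
Difference of each library from the Con mean for the 32 p53 target genes (rows, grouped by role) in 12 libraries (columns); the colour gives log2(FPKM + 1) minus the mean of the 3 Con libraries. The 3 IR columns are red in most rows, and the row of GDF15 is darkest in Rx 2 and Combo 2.

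Among the 8 genes grouped here under the cell cycle, not all of which halt it, CDKN1A (chr6:36676460-36687339, plus strand) encodes p21, the inhibitor of cyclin-dependent kinases. CDKN1A stood at 135, 151 and 157 FPKM in Con, 182, 221 and 220 in IR, 157, 181 and 165 in Rx, and 195, 242 and 194 in Combo. Every irradiated library was above every sham library that had received the same drug or vehicle. The log2(FPKM + 1) difference, the scale of all differences given here, was 0.49 (SE 0.11, adjusted p = 0.631) in IR against Con and 0.51 (SE 0.11, adjusted p = 0.139) in Combo against Con. Under QTP the difference made by radiation (Combo against Rx) was 0.32 (SE 0.11, adjusted p = 0.545).

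BTG2 (chr1:203305491-203309602, plus strand) is an antiproliferative gene that binds the CCR4-NOT deadenylase. BTG2 stood at 16.1, 15.3 and 15.8 FPKM in Con, 20.97, 20.7 and 22.3 in IR, 14.96, 15.4 and 13.8 in Rx, and 16.95, 19.8 and 14.3 in Combo. The IR libraries were above all 9 others, and the Combo libraries overlapped both sham groups. The difference was 0.41 (SE 0.10, adjusted p = 0.631) in IR against Con, and -0.32 (SE 0.10, adjusted p = 0.178; -0.21 without Combo 3) in Combo against IR.

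PLK2 (chr5:58453982-58460260, minus strand) and PLK3 (chr1:44800225-44805990, plus strand) encode polo-like kinases that respond to stress. PLK2, with the highest mean over the 12 libraries of the 32 genes (187 FPKM, against 183 for CDKN1A), stood at 178, 171 and 181 FPKM in Con, 195, 208 and 220 in IR, 183, 178 and 186 in Rx, and 188, 189 and 171 in Combo. PLK3 stood at 11.6, 12.1 and 12.2 FPKM in Con, 15.1, 13.2 and 11.1 in IR, 11.9, 12.4 and 12.1 in Rx, and 15.3, 15.2 and 14.5 in Combo. The pair thus ordered the irradiated groups differently: PLK2 was highest in IR, whose 3 values were above those of Con and Combo, and PLK3 was highest in Combo, whose 3 values were above those of Con and Rx while IR spanned the range. PLK2 differed by 0.23 (SE 0.07) in IR against Con and 0.00 (SE 0.07) in Combo against Rx, and PLK3 by 0.11 (SE 0.09) and 0.29 (SE 0.09). The value of 0.11 was 0.01 without IR 1 and 0.22 without IR 3.

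CCNG1 (chr5:163437569-163446151, plus strand) encodes cyclin G1, which recruits a phosphatase to MDM2. CCNG1 stood at 139, 136 and 136 FPKM in Con, 142, 160 and 174 in IR, 133, 148 and 138 in Rx, and 133, 153 and 130 in Combo. Con was narrow and lay wholly below IR, where the spread was larger, and Combo overlapped Rx (difference -0.01, SE 0.09, which turned to 0.01 when libraries were scaled by the median of ratios). ZMAT3 (chr3:179017223-179072279, minus strand) encodes an RNA-binding zinc finger protein. ZMAT3 stood at 24.0, 21.9 and 25.5 FPKM in Con, 27.2, 24.1 and 25.8 in IR, 24.1, 17.1 and 22.9 in Rx, and 25.8, 26.9 and 24.5 in Combo. Its groups overlapped under vehicle, and under QTP all 3 irradiated libraries were above all 3 sham ones. The other genes of this role were GADD45A, a stress sensor (71.5 to 121 FPKM, IR against Con 0.24, SE 0.13), and SERTAD1, a regulator of CDK4 (6.63 to 9.65 FPKM, 0.16, SE 0.11).

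**Figure D2:**
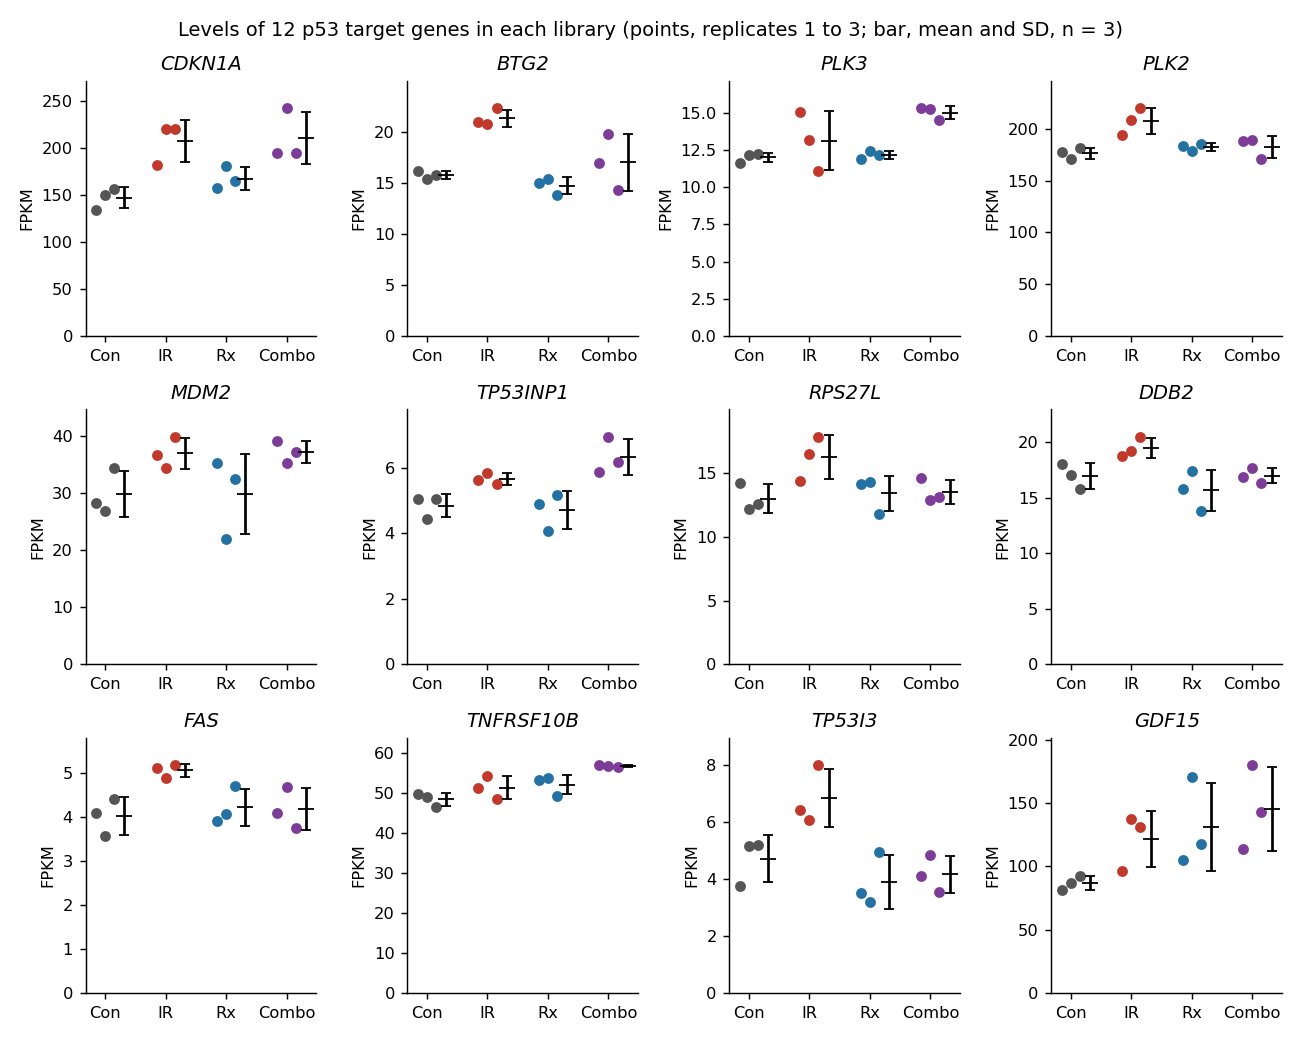
FPKM (y axis, linear from 0) of 12 p53 target genes, 1 panel each, in the 3 libraries of each group (points, replicates 1 to 3 from left to right), with the mean and SD of each group (n = 3, black). CDKN1A lies at 182 to 221 FPKM in IR against 135 to 157 in Con, and TNFRSF10B is tightest in Combo.

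The 5 genes grouped here under feedback on p53 include TRIAP1, which is better known as an inhibitor of apoptosis. All 5 stood higher on average in IR than in Con (52.6% of all genes), and in Combo than in Rx (46% of all genes). The latter difference was only 0.01 for RPS27L and turned negative when some single libraries were left out. MDM2 (chr12:68808176-68850686, plus strand), the ubiquitin ligase for p53 and the carrier of the second-start site shown above, stood at 28.3, 26.9 and 34.4 FPKM in Con, 36.8, 34.5 and 39.9 in IR, 35.3, 22.1 and 32.5 in Rx, and 39.1, 35.3 and 37.2 in Combo. IR lay just above Con without overlap, and Rx 2 was the lowest of the 12 libraries. MDM2 differed by 0.31 (SE 0.15) in IR against Con and 0.33 (SE 0.15) in Combo against Rx, and the latter was 0.13 without Rx 2.

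TP53INP1 (chr8:94925972-94949411, minus strand) encodes a nuclear protein that promotes p53 phosphorylation. TP53INP1 stood at 5.04, 4.45 and 5.06 FPKM in Con, 5.64, 5.84 and 5.50 in IR, 4.91, 4.06 and 5.18 in Rx, and 5.89, 6.95 and 6.19 in Combo. As with CDKN1A, the irradiated and sham libraries did not overlap in either drug arm. The difference was 0.19 (SE 0.09, adjusted p = 0.727) in IR against Con and 0.36 (SE 0.09, adjusted p = 0.545) in Combo against Rx.

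RPS27L (chr15:63125872-63158021, minus strand), a ribosomal protein-like gene that acts on MDM2, stood at 14.2, 12.2 and 12.5 FPKM in Con, 14.4, 16.5 and 17.8 in IR, 14.1, 14.3 and 11.8 in Rx, and 14.6, 12.8 and 13.1 in Combo. The IR libraries were above the Con libraries, and the Combo libraries overlapped Rx (differences 0.30, SE 0.10, and 0.01, SE 0.10). PPM1D, the phosphatase that reverses ATM signalling (3.76 to 6.09 FPKM), differed by 0.16 (SE 0.10) in IR against Con, and TRIAP1, an inhibitor of apoptosis (25.9 to 37.9 FPKM), by 0.16 (SE 0.11).

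The 6 genes grouped here under DNA repair and nucleotide supply, roles that AEN is not known for, held the pair that was lower in IR. RRM2B (chr8:102204502-102239118, minus strand) encodes the p53-induced subunit of ribonucleotide reductase, which makes the building blocks of DNA. RRM2B stood at 28.3, 27.4 and 33.7 FPKM in Con, 31.9, 34.7 and 37.2 in IR, 29.8, 25.2 and 32.6 in Rx, and 30.3, 37.3 and 30.8 in Combo. Irradiated and sham libraries overlapped in both drug arms (IR against Con 0.21, SE 0.12, and Combo against Rx 0.16, SE 0.12, or 0.07 without Rx 2 or without Combo 2). DDB2 (chr11:47214465-47239240, plus strand), the damage-recognition protein whose promoter held the site with 0 mismatches, stood at 18.0, 17.1 and 15.7 FPKM in Con, 18.8, 19.2 and 20.5 in IR, 15.8, 17.4 and 13.8 in Rx, and 16.8, 17.7 and 16.3 in Combo. The IR libraries were the 3 highest of the 12, and the difference was 0.19 (SE 0.08) in IR against Con. XPC, another damage sensor (14.4 to 19.9 FPKM), differed by 0.17 (SE 0.12), and AEN, an exonuclease (10.9 to 13.04 FPKM), by 0.10 (SE 0.07). XPC shares 30.4% of its exon bases with other annotated genes, so its reads may be split or shared. POLH ranged from 7.72 FPKM in IR 3 to 12.05 in IR 2, and ASCC3 from 10.8 in Rx 2 to 16.2 in Con 3.

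Of the 7 genes of cell death, FAS (chr10:88990582-89015785, plus strand) and TNFRSF10B (chr8:23020133-23069179, minus strand) encode death receptors, for FAS ligand and for TRAIL. FAS stood at 4.09, 3.56 and 4.40 FPKM in Con, 5.10, 4.88 and 5.17 in IR, 3.89, 4.06 and 4.69 in Rx, and 4.09, 4.68 and 3.74 in Combo. The 3 IR libraries were above all 9 others, and Combo overlapped Con and Rx. TNFRSF10B stood at 49.7, 48.8 and 46.4 FPKM in Con, 51.2, 54.2 and 48.4 in IR, 53.1, 53.6 and 49.2 in Rx, and 56.9, 56.6 and 56.4 in Combo. Here Combo was the highest group, above all 9 others, and it had the smallest spread. FAS differed by 0.27 (SE 0.09) in IR against Con and -0.01 (SE 0.09) in Combo against Rx, the latter 0.00 with median of ratios scaling, while TNFRSF10B differed by 0.08 (SE 0.06) and 0.12 (SE 0.06).

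TP53I3 (chr2:24077433-24085861, minus strand) encodes a quinone oxidoreductase linked to oxidative stress. TP53I3 stood at 3.75, 5.17 and 5.18 FPKM in Con, 6.43, 6.06 and 7.99 in IR, 3.52, 3.18 and 4.95 in Rx, and 4.11, 4.83 and 3.55 in Combo. The IR libraries were above all 9 others, and both QTP groups overlapped Con. The difference was 0.46 (SE 0.16, adjusted p = 0.68) in IR against Con and -0.60 (SE 0.16, adjusted p = 0.165) in Combo against IR, the most negative difference of the 32 genes in that comparison. The other genes of this role differed in IR against Con by 0.15 (PHLDA3, an inhibitor of AKT, SE 0.07), 0.27 (NINJ1, a membrane rupture protein, SE 0.13), 0.15 (DRAM1, a lysosomal regulator of autophagy, SE 0.07) and 0.04 (SPATA18, a mitochondrial quality gene, SE 0.16).

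Of the 6 genes of metabolism, redox balance and secretion, GDF15 (chr19:18374731-18389176, plus strand) encodes a secreted stress cytokine. GDF15 stood at 81.5, 87.1 and 92.2 FPKM in Con, 96.2, 138 and 131 in IR, 105, 170 and 118 in Rx, and 114, 180 and 143 in Combo. All 9 treated libraries were above all 3 Con libraries, and Rx 2 and Combo 2 were the highest. GDF15 had the largest pooled SD between libraries of the 32 genes, 0.285 on the log2 scale, against a median of 0.133. Its differences from Con were 0.46 (SE 0.20) in IR, 0.56 (SE 0.20, adjusted p = 1.00; 0.35 without Rx 2) in Rx and 0.71 (SE 0.20, adjusted p = 0.19) in Combo. These 3 comparisons share the Con libraries.

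SESN1 (chr6:108986437-109094819, minus strand) encodes sestrin 1, which restrains mTORC1. SESN1 stood at 10.7, 12.2 and 12.4 FPKM in Con, 12.6, 13.4 and 15.7 in IR, 11.4, 9.93 and 11.2 in Rx, and 11.9, 12.2 and 10.2 in Combo. The IR libraries were the highest, and Combo overlapped both sham groups. CES2 (chr16:66934444-66945096, plus strand), a carboxylesterase, stood at 52.6, 51.3 and 62.0 FPKM in Con, 61.9, 61.9 and 63.0 in IR, 54.6, 47.5 and 56.0 in Rx, and 59.2, 57.1 and 54.2 in Combo. Con 3 fell within the narrow range of IR, so those groups overlapped. SESN1 differed by 0.22 (SE 0.10) and CES2 by 0.17 (SE 0.09) in IR against Con. FDXR, a mitochondrial ferredoxin reductase, ranged from 28.1 to 45.3 FPKM (0.20, SE 0.13), ACER2, a ceramidase, from 1.28 to 3.33 FPKM (0.04, SE 0.18), and TIGAR, a glycolysis regulator, from 1.03 to 1.53 FPKM (0.16, SE 0.09). TIGAR had the lowest mean FPKM of the 32 and shares 45.6% of its exon bases with other annotated genes. PHLDA3 (19.06%) and CES2 (10.93%) also share part of theirs.

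Radiation under QTP (Combo against Rx) took its means from none of the libraries of IR against Con. Its p-values are not independent of that comparison, because the fit estimated 1 spread per gene from all 12 libraries. The mean of 26 of the 32 genes was higher in Combo than in Rx (81.2%, against 46% of all genes tested), with a median difference of 0.10 against -0.01 for all genes. Groups lay apart in the higher direction for 7 genes (21.9%, against 8.26% of all genes): CDKN1A, TP53INP1, PLK3, TNFRSF10B, ZMAT3, SPATA18 and ASCC3. At an unadjusted p under 0.05, 5 of 32 were higher (15.6%, against 2.81% of all genes), and limma and its voom variant called 0 of 32 with adjustment (0% of all genes with limma). That count of 5 was 3 without Combo 1, 2 without Combo 2 and 9 with libraries scaled by the median of ratios, and the median was 0.06 without Combo 2 or without Rx 2.

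**Figure D3:**
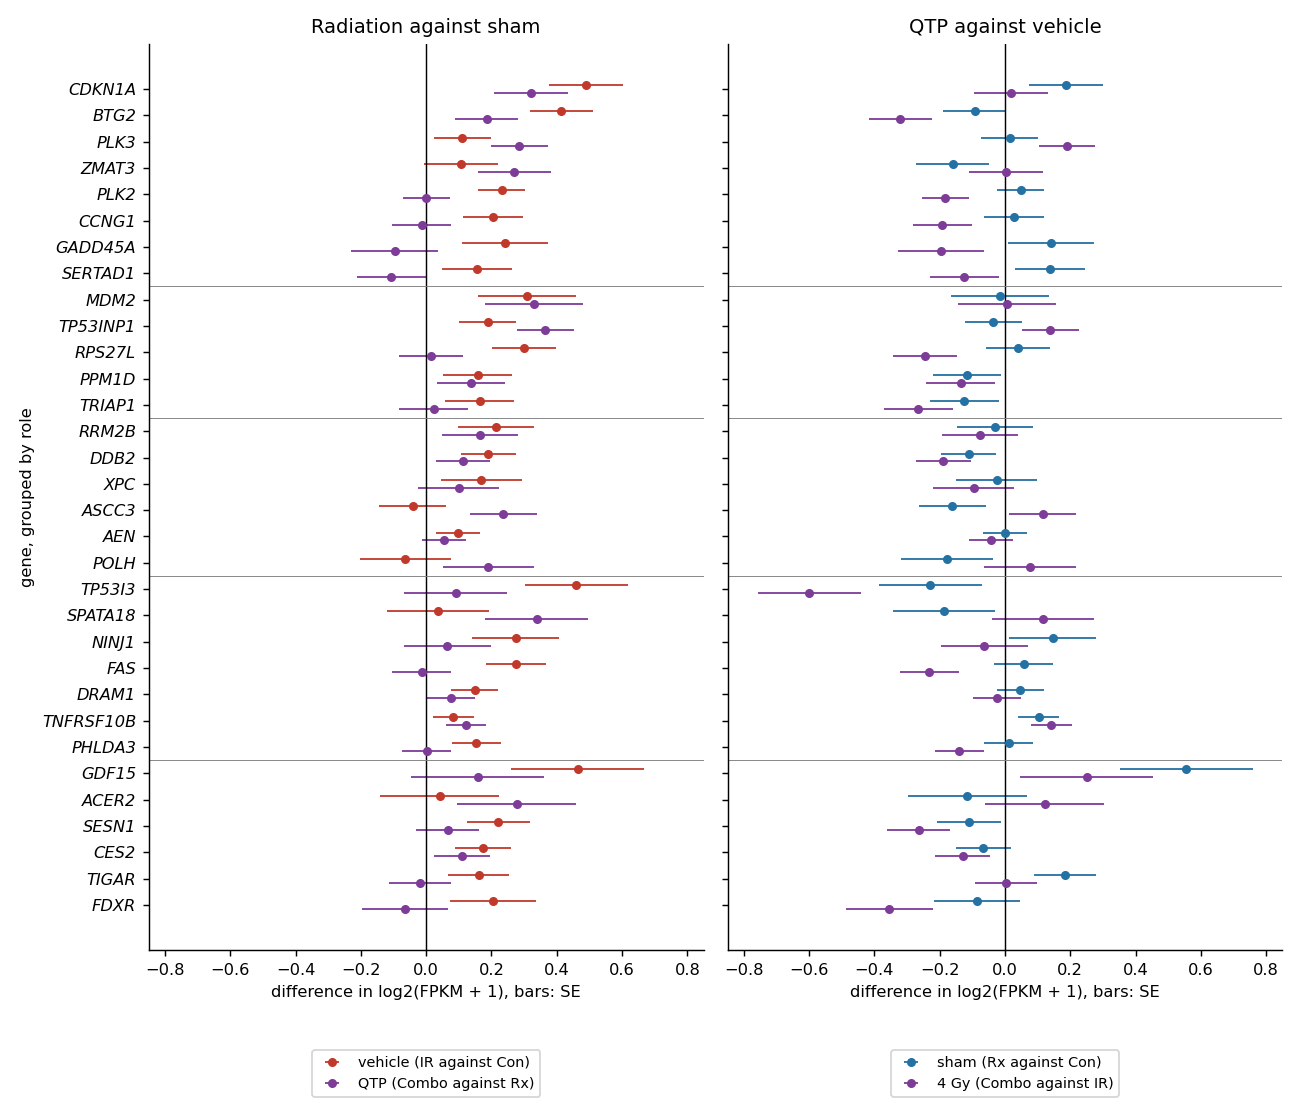
Difference in log2(FPKM + 1) (x axis; points, with SE as bars) for each of the 32 p53 target genes (y axis, grouped by role): left, radiation against sham under vehicle (red) and under QTP (purple); right, QTP against vehicle in sham (blue) and irradiated cells (purple). CDKN1A lies at 0.49 and 0.32 on the left, POLH and ASCC3 are the genes whose red points lie left of 0, and TP53I3 lies at -0.60 on the right.

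Side by side, 24 of the 32 genes had a higher mean with radiation in both drug arms (75%, against 23% of all genes). FAS, FDXR, TIGAR, CCNG1, GADD45A and SERTAD1 were higher with radiation under vehicle and lower under QTP, and POLH and ASCC3 the reverse. With scaling by the median of ratios, FAS and CCNG1 also had a difference above 0 under QTP. Averaged over both drug arms, all 32 means were higher with radiation (48.5% of all genes), with a median of 0.14, and 13 were higher at an unadjusted p under 0.05 (40.6%, against 3.34% of all genes). That count of 13 was 7 without Con 2, 8 without IR 2 and 6 without Combo 2. CDKN1A and TP53INP1 were the 2 genes whose irradiated and sham libraries lay apart in both arms (6.25%, against 0.407% of all genes). The averaged differences were 0.41 for CDKN1A (SE 0.08), 0.32 for MDM2 (SE 0.11), 0.30 for BTG2 (SE 0.07), 0.28 for TP53INP1 (SE 0.06) and 0.20 for PLK3 (SE 0.06). Their adjusted p ran from 0.349 (CDKN1A) to 0.428 (MDM2), and limma called 0 of 32 genes here (0% of all genes).

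The test of whether radiation acted differently with and without QTP (the interaction) called 0 of 32 genes and 0% of all genes with limma. The difference made by radiation had a smaller mean under QTP for 23 of 32 genes (71.9%, against 55.1% of all genes), with a median of -0.11, and that median was -0.06 without Combo 3 and -0.02 without IR 3 and Combo 3. PLK2 (-0.23, SE 0.10, adjusted p = 0.609) and FAS (-0.29, SE 0.13, adjusted p = 0.609) were the 2 genes lower at an unadjusted p under 0.05 (6.25%, against 5.31% of all genes), and 0 were with voom or with median of ratios scaling. A share so close to that of all genes is not a result about the p53 targets.

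With QTP alone (Rx against Con) the median difference of the p53 target genes was near 0, while single differences ran from -0.23 to 0.56. The mean of 14 of 32 was higher in Rx (43.8%, against 51.7% of all genes), with a median of -0.02. That median was 0.00 without Rx 2 and -0.08 without Con 2. It turned to 0.025 without Con 3, when 20 of 32 means were higher (52.1% of all genes). Rx lay above Con without overlap for CDKN1A, GDF15 and TIGAR (9.38%, against 4.6% of all genes), and 1 gene, GDF15, was higher at an unadjusted p under 0.05 (3.12%, against 2.36%), and none was without Con 1. limma called 0 of 32 and 0% of all genes.

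In irradiated cells QTP (Combo against IR) went with lower means for 20 of 32 genes (62.5%, against 52.6% of all genes), with a median of -0.09. BTG2, PLK2, SESN1, FAS, DDB2, FDXR, TP53I3 and CES2 lay wholly below IR (25%, against 11.6% of all genes), and TP53INP1 and TNFRSF10B wholly above (6.25%, against 8.53%). At an unadjusted p under 0.05, 9 were lower (28.1%, against 11.6% of all genes) and 1, TNFRSF10B, was higher (3.12%, against 5.91%), with 0 of 32 and 0% of all genes passing limma's adjusted test. These 10 genes were 2 without IR 3, 2 without Combo 3 and 0 without both, and the median was -0.03 without Combo 3, -0.14 without Combo 2 and -0.02 without IR 3 and Combo 3. CDKN1A (0.02, SE 0.11) and MDM2 (0.01, SE 0.15) had nearly equal means in Combo and IR, with intervals that leave room for a difference either way.

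**Figure D4:**
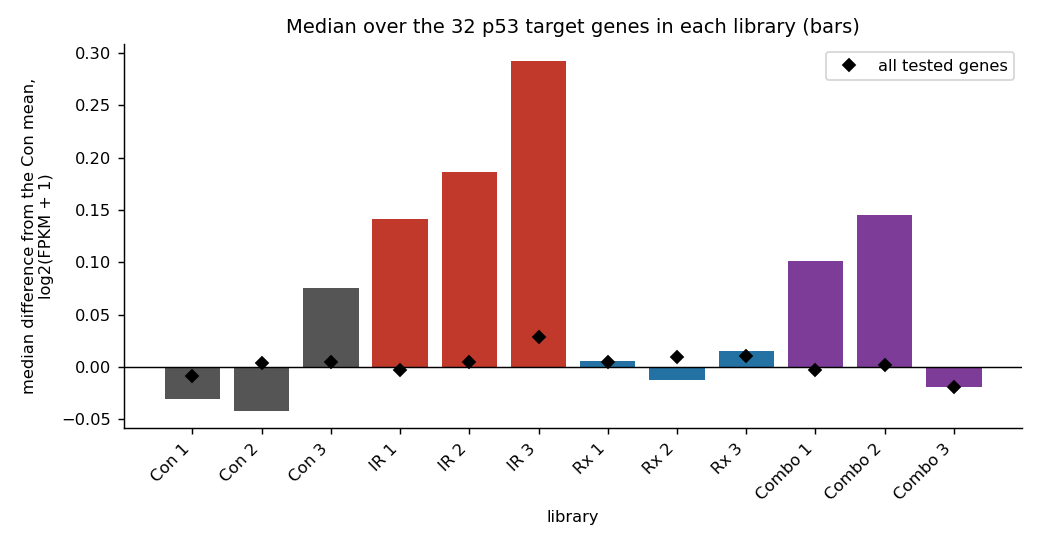
Median over the 32 p53 target genes of the log2(FPKM + 1) difference from the Con mean (y axis) in each of the 12 libraries (bars, coloured by group), with the median over all tested genes as black diamonds. The IR bars stand at 0.14, 0.19 and 0.29, and the diamonds lie between -0.02 and 0.03.

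Library by library, the median of the 32 genes relative to the Con mean was -0.03, -0.04 and 0.08 in Con, 0.14, 0.19 and 0.29 in IR, 0.01, -0.01 and 0.02 in Rx, and 0.10, 0.15 and -0.02 in Combo. IR 3 was thus the highest library and Combo 3 the one irradiated library below 0. Combo 3 had 15 of 32 genes above the Con mean, against 26 to 31 in the IR libraries and 27 and 29 in Combo 1 and Combo 2. Averaged over radiation, QTP went with lower means for 22 of 32 genes (68.8%, against 51.9% of all genes), with a median of -0.05, which was -0.02 without Combo 3 or without Rx 2. At an unadjusted p under 0.05, 6 were lower (18.8%, against 6.17%), with TP53I3 first (-0.41, SE 0.11, adjusted p = 0.226), and 2, GDF15 (0.40, SE 0.14) and TNFRSF10B (0.12, SE 0.04), were higher (6.25%, against 5.21%). The 8 genes were 4 without Combo 3. limma called 12 of all genes here (0.092%) and 0 of the 32.

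Combo against Con combines both treatments. The mean of 28 of 32 genes was higher in Combo (87.5%, against 48.5% of all genes), with a median of 0.06, which was 0.12 without Combo 3, 0.11 without Con 3 and 0.04 without Combo 2. Of the 32, 7 lay wholly above Con (21.9%, against 10% of all genes) and 5 were higher at an unadjusted p under 0.05 (15.6%, against 5.49%): CDKN1A, GDF15, TP53INP1, PLK3 (0.30, SE 0.09, adjusted p = 0.194) and TNFRSF10B (0.22, SE 0.06, adjusted p = 0.185). limma called 0 of 32 and 0% of all genes. With the replicate number as a block, which has no stated origin, it called 2 of 32, CDKN1A and GDF15, and 90 of all 13038 genes.

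**Figure D5:**
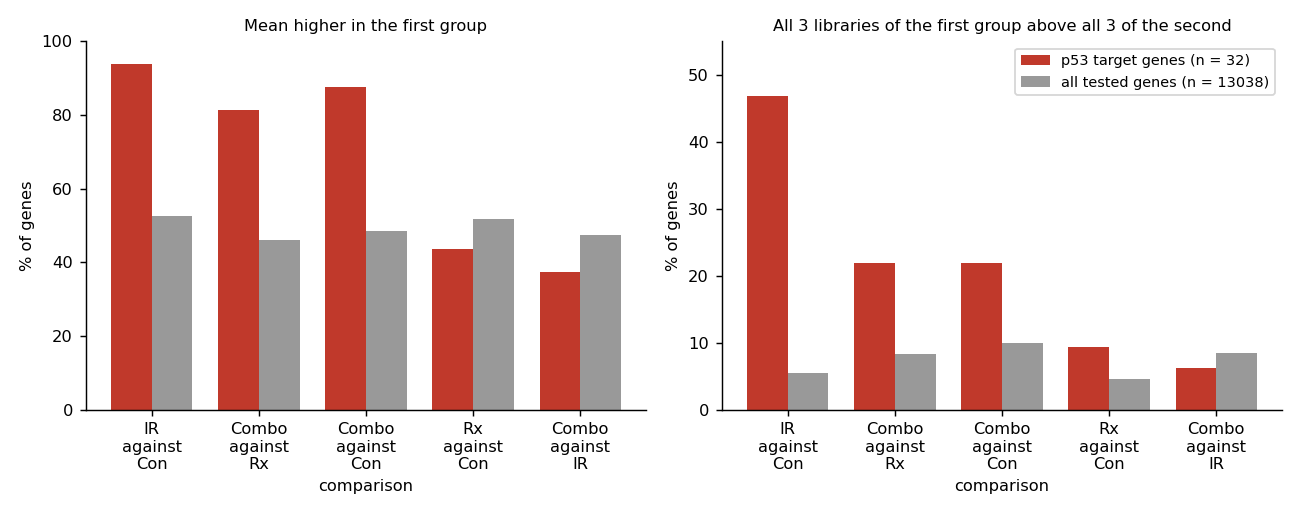
Share of the 32 p53 target genes (red) and of all 13038 tested genes (grey) in percent, for 5 comparisons: left, genes with a higher mean in the first group; right, genes whose 3 libraries in the first group all lie above the 3 of the second. In IR against Con the right panel shows 46.9% of the p53 target genes against 5.56% of all genes.

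MDM4, a partner of MDM2, ranged from 3.46 to 4.60 FPKM. CDKN2A had 3 to 19 reads per library, under the minimum for testing. Of 23 upstream regulators 20 were tested, of which 3 had a higher and 17 a lower mean in IR against Con (lower in 47.4% of all genes; median -0.06, or -0.03 without IR 3 and Combo 3). There 1 of the 20, RPL11 (0.29, SE 0.12), was higher at an unadjusted p under 0.05 (3.69% of all genes) and 0 passed limma's adjusted test. The next smallest p were those of CREBBP (-0.22, SE 0.13) and PRKDC (-0.33, SE 0.19).

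Outside the 32, 34 of 37 other direct p53 targets were tested. In IR against Con 25 had a higher mean (52.6% of all genes; median 0.11, or 0.07 without Con 1), 5 were higher and 1 lower at an unadjusted p under 0.05 (3.69% and 3.17% of all genes), and 0 passed with adjustment. Under QTP (Combo against Rx) 20 of the 34 had a higher mean (46% of all genes), with a median of 0.03. There 2 were higher and 0 lower at an unadjusted p under 0.05 (2.81% and 6.3% of all genes), and 0 passed with adjustment. The 3 with the smallest p in IR against Con were BLOC1S2, a lysosome positioning gene (0.35, SE 0.08), ATF3, a stress transcription factor (0.28, SE 0.10), and PERP, a desmosome gene (0.21, SE 0.08). BLOC1S2 stood at 8.79, 8.92 and 9.20 FPKM in Con, 10.6, 11.6 and 13.1 in IR, and 8.73, 9.65 and 8.48 in Combo, so that, as for FAS and TP53I3, IR lay above Combo. SESN2, the sestrin that responds to amino acid and endoplasmic reticulum stress as well as to p53, stood at 18.7, 16.2 and 19.7 FPKM in Con, 19.7, 17.2 and 19.7 in IR, 22.7, 23.6 and 20.8 in Rx, and 25.1, 24.3 and 28.7 in Combo. Both QTP groups lay above both vehicle groups, unlike SESN1 (QTP averaged 0.36, SE 0.07, adjusted p = 0.0774). That p was 0.0366 to 0.0438 with voom, with a minimum of 5 FPKM and with protein-coding genes alone, and ran from 0.0366 to 0.326 over all alternatives. The 3 p53 targets of the BCL2 family, BAX, BBC3 and PMAIP1, each had an IR mean above the Con mean (52.6% of all genes). Their median was 0.22, or 0.11 without IR 3 and Combo 3. In Combo against Rx BAX was lower (-0.15, SE 0.10), and BBC3 (0.08, SE 0.08) and PMAIP1 (0.13, SE 0.22) were higher.

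The 20 cell cycle genes that p21 and the DREAM complex are known to lower were all measured. All 20 had an IR mean below the Con mean (47.4% of all genes), with a median of -0.32, or -0.19 without Con 2. Of the 20, 7 were lower at an unadjusted p under 0.05 (3.17% of all genes). In Rx against Con 19 of the 20 were also lower in mean (48.3% of all genes; median -0.23, or -0.07 without Rx 3), 1 of them at an unadjusted p under 0.05 (0.897% of all genes). In Combo against Con all 20 were lower in mean (51.5% of all genes), with a median of -0.63, and 18 were at an unadjusted p under 0.05 (7.69% of all genes). Of the 20, 0 passed limma's adjusted test in these 3 comparisons. With QTP averaged over both radiation arms 11 were lower at an unadjusted p under 0.05 (6.17% of all genes). The 3 with the smallest p in IR against Con were CENPE, a mitotic motor (-0.54, SE 0.11), FOXM1, a mitotic transcription factor (-0.61, SE 0.14), and MKI67, a proliferation marker (-0.73, SE 0.21). FOXM1 stood at 7.15, 9.13 and 6.31 FPKM in Con, 5.18, 4.85 and 3.73 in IR, 6.71, 6.13 and 5.00 in Rx, and 4.11, 4.16 and 3.52 in Combo. These 3 genes had their lowest mean in Combo. In bulk RNA, fewer cells in a phase of the cycle and less RNA per cell cannot be told apart.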

How the data were processed

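The authors deposited 1 table of FPKM values per gene for 12 libraries, mapped to hg38 per the submitters' processing notes. Aligner, counter and strand setting: not given in the sources used here, so reads of overlapping genes cannot be assigned with certainty. FPKM steps gave whole reads for 100% of values (tolerance 0.01), whose sum per library is the depth given. Groups came from the sample titles.

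All 13038 genes averaging 1 FPKM or more were tested on log2(FPKM + 1) by limma (3.58.1, R 4.3.3; trended variance, 12 libraries in 1 fit, two-sided, Benjamini-Hochberg, threshold 0.05) in 8 comparisons. SEs are limma's. The fit was tested on simulated data. Genes given library by library were 9 fixed ones, among them CDKN1A and MDM2, and every member with an unadjusted p under 0.05 in IR against Con or with radiation averaged; other lists name their 3 smallest p. A gene that the rule also named is not reported here. The members and lists were chosen with earlier results of these data known. Alternatives were another pseudocount, filters, scaling, a replicate block, voom on recovered reads and each library left out. Members' spans equal those of GENCODE 29.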

Additional observations from a re-analysis of the deposited data

How the results depend on the processing

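Over the 8 comparisons, the median difference of the 32 genes moved by less than its spread between libraries (0.0694) in all 96 leave-one-out fits. It did so in 63 of the 64 other fits. The exception was the interaction, at -0.0204 without IR 3 and Combo 3. That spread exceeds the size of the median in Rx against Con (-0.0206), Combo against Con (0.0645) and QTP averaged (-0.0521). There a median could vanish and still count as unmoved. In Combo against IR the median went from -0.0865 to -0.0245 without IR 3 and Combo 3, which also counted as unmoved. The number of the 32 genes passing limma's adjusted test stayed at 0 in 95 of the 96 leave-one-out fits and 63 of the 64 others (another pseudocount of 0.1, no filter, a minimum of 5 FPKM, median of ratios scaling, voom, protein-coding genes alone, the replicate block, and IR 3 and Combo 3 left out); both exceptions follow.

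With the replicate number as a block, 90 genes passed in Combo against Con, 2 of them p53 targets: CDKN1A (0.51, SE 0.08, adjusted p = 0.0428) and GDF15 (0.71, SE 0.12, adjusted p = 0.047). Over all alternatives those adjusted p ran from 0.0428 to 0.55 and from 0.047 to 0.62. The block called 11 of the 20 cell cycle genes there, against 90 of all 13038 genes, and against 0 of the 20 as reported. The block also gave 3 genes with radiation averaged. The replicate numbers share no stated origin: over 18 same-number pairs of libraries the deviations from the group means correlated at -0.207 to 0.354 (median 0.178, over 0.1 in 11), and 10 of 12 libraries correlated best with their own number, a hint from the data and not the design.

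Over all genes and without a filter, 1 gene passed in Rx against Con, 4 in Combo against Rx, 5 each for IR and Combo set against Con and for radiation averaged, and 6 each for Combo against IR, the interaction and QTP averaged. For QTP averaged (12 as reported) it was 24 with a minimum of 5 FPKM, 34 with voom, 30 with protein-coding genes alone, and 0 with median of ratios scaling and without IR 3 and Combo 3. Leaving out 1 library gave 0 to 3 genes in IR against Con, 0 to 956 in Combo against IR (956 without IR 1), 0 to 3 in the interaction, 0 to 1 with radiation averaged and 0 to 18 with QTP averaged. Without IR 1, 1 of the 32 passed in Combo against IR (range 0 to 1), which was PLK3. The cause was not tested.

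Of the single differences reported, those that changed sign lay near 0. In IR against Con, POLH was 0.1256 and ASCC3 0.0091 without IR 3 and Combo 3; over left-out libraries POLH ran from -0.1648 to 0.1256, ASCC3 from -0.0969 to 0.0421, SPATA18 from -0.1267 to 0.1815 and ACER2 from -0.0564 to 0.1068. In Combo against Rx, FAS was 0.0035 with median of ratios scaling, 0.0126 with voom and 0.0466 without IR 3 and Combo 3, and CCNG1 0.008, 0.0077 and 0.03. Over left-out libraries FAS ran from -0.0837 to 0.0503, CCNG1 from -0.0873 to 0.03, PLK2 from -0.0258 to 0.0491 and RPS27L from -0.0677 to 0.0601. In Combo against IR, CDKN1A ran from -0.0856 to 0.0725 and MDM2 from -0.0425 to 0.0603. Depth limits the low genes most: 1 FPKM of a 1 kb transcript was 13.3 to 19.1 reads. The planned quasi-likelihood count test on recovered reads was not run, because the deposited unit is FPKM; voom and the restriction to protein-coding genes were chosen after seeing the data.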
